A study of Mus musculus with 95 samples.

Results

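Wild-type mice of 2 lines were compared in the bed nucleus of the stria terminalis, counted by RNA sequencing. These were 12 libraries of the FKBP51-Nex-Cre line and 12 of the FKBP51-Dlx-Cre line, 24 of the 95 libraries in the series, and each line had 6 males and 6 females. The libraries were chosen by their labels (bed nucleus, wild-type), and the comparison took the sex code of the titles as a covariate. The mice were C57BL/6, untreated and at baseline, and their ages are not given in the labels. In the series the lines serve to delete Fkbp5, the gene of the steroid receptor co-chaperone FKBP51, from glutamatergic neurons (Nex, the Neurod6 driver) or GABAergic neurons (Dlx, the Dlx5 and Dlx6 driver). The animals used for the main comparison are the wild types of each line, and the labels do not say whether they carry the floxed allele or a Cre transgene. Line also marks the breeding cohort and the dissection, so an effect of the line, its cohort or its dissection cannot be told apart.

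The bed nucleus is a small, mostly GABAergic part of the extended amygdala that links the amygdala with the hypothalamus and is known for its role in sustained anxiety and stress responses. Its neurons use peptides such as enkephalin, dynorphin and somatostatin beside GABA. It lies close to the striatum, the septum, the thalamus and the preoptic hypothalamus, each with marker genes of its own.

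The 24 libraries held 21.2 to 29.2 M counts in the Nex line and 20.4 to 27.0 M in the Dlx line. The sex code matched Xist and Y-linked transcripts in 24 of 24 libraries. Bed nucleus libraries held 580 to 1106 CPM (counts scaled by library size, as described under processing) of Gad2, an enzyme of GABA synthesis, against 88.7 to 254.6 CPM in the 24 wild-type dorsal hippocampus libraries. Slc17a7, the vesicular glutamate transporter of cortex and hippocampus, stood at 1.46 to 59.5 CPM in the bed nucleus and at 1036 to 1832 CPM in the hippocampus. Nothing in the labels ties the libraries to separate litters or days, so p-values measure the spread between these libraries.

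Of 18634 genes tested, 782 (4.2%) were higher and 128 (0.687%) were lower in the Nex line, by edgeR's quasi-likelihood test at a Benjamini-Hochberg adjusted p under 0.05, and genes past that threshold are said to be called. The log2 differences are Nex over Dlx. Most were modest: the median was 0.45 among the genes called higher and -0.34 among those called lower, and 144 higher and 5 lower genes differed by 1 or more on the log2 scale. Among called genes with a mean of 1 CPM or more, the 12 largest rises were 6 protein-coding genes and 6 noncoding loci. The coding genes included a potassium channel subunit, a guanylate cyclase subunit and an opioid receptor. Larger rises, up to 4.33, were called only in genes below that level. The genes that stood lower included endothelial and smooth muscle genes of vessels.

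Some libraries lay away from the others of their line and sex, and the count moved most without 2 of them. On the first principal component, which held 36.3% of the variance of the 1000 most variable genes, Dlx female 1 lay at -19.87 among the Nex libraries, while the other 5 Dlx females lay between 9.83 and 24.59. A Nex male, called the outlying Nex male here, lay at 28.42, at the opposite end from the other 5 Nex males. A Dlx male lay at -21.4, where the other Dlx males lay between -5.7 and 24.03, and a Nex female at 23.43, where the other Nex females lay between -21.86 and 5.17. Without Dlx female 1 the test called 1856 genes (1399 higher, 457 lower), and without the outlying Nex male it called 1456 (1074 higher, 382 lower). Of the 910 genes called with all libraries, 907 were called in the first of these fits and 891 in the second. Without that Dlx male the test called 852 genes, and without that Nex female 947.

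**Figure D1:**
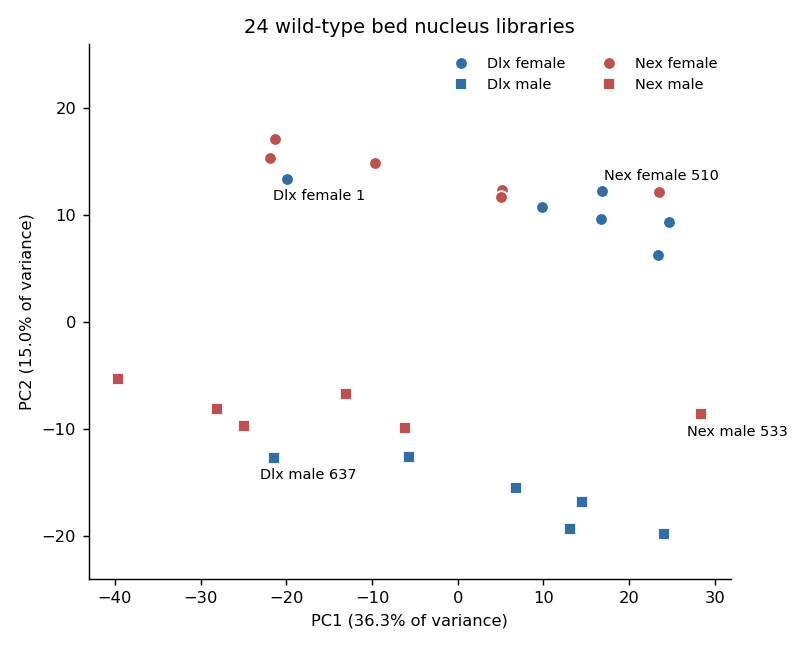
First and second principal components of the 24 wild-type bed nucleus libraries (1000 most variable genes, log2 CPM); colours are lines, circles are females and squares are males. The second component separates the sexes, and on the first component the 4 labelled libraries, a Dlx female (-19.87), a Dlx male (-21.4), a Nex male (28.42) and a Nex female (23.43), lie away from the other libraries of their line and sex.

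The largest rise among genes with a mean of 1 CPM or more was in Kcng3, a modifier subunit of voltage-gated potassium channels (chromosome 17, 83585957 to 83631895, GRCm38). Its level ran from 0.798 through a median of 4.43 to 10.3 CPM in the Nex line and from 0.133 through 0.644 to 4.72 CPM in the Dlx line. The lines overlapped, since the highest Dlx value came from Dlx female 1 and the outlying Nex male stood at 0.933 CPM. The log2 difference was 2.35 (SE 0.49, edgeR adjusted p = 0.00449).

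Gucy1a2, which encodes an alpha subunit of the nitric oxide receptor guanylate cyclase (chromosome 9, 3532778 to 3894736), ranged from 2.16 through 7.82 to 19.6 CPM in the Nex line. In the Dlx line it ranged from 1.33 through 1.93 to 5.87 CPM, and 8 of 12 Nex libraries stood above every Dlx library. The log2 difference was 1.89 (SE 0.30, edgeR adjusted p = 0.000600). Dlx female 1 again held the highest Dlx value.

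Oprm1, the gene of the mu opioid receptor (chromosome 10, 6758506 to 7038198), had levels from 1.22 through 5.48 to 7.47 CPM in the Nex line and from 0.429 through 1.25 to 6.17 CPM in the Dlx line. Only 4 Nex libraries exceeded every Dlx library, because Dlx female 1 stood at 6.17 CPM. The log2 difference was 1.57 (SE 0.31, edgeR adjusted p = 0.00339). The other opioid receptor genes, chosen after their values were seen, did not pass the test here: Oprk1, the kappa receptor, had a log2 difference of 0.37 (edgeR adjusted p = 0.113), and Oprd1, the delta receptor, 0.23 (edgeR adjusted p = 0.31). Both were called higher in the knockout bed nucleus libraries described below.

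**Figure D2:**
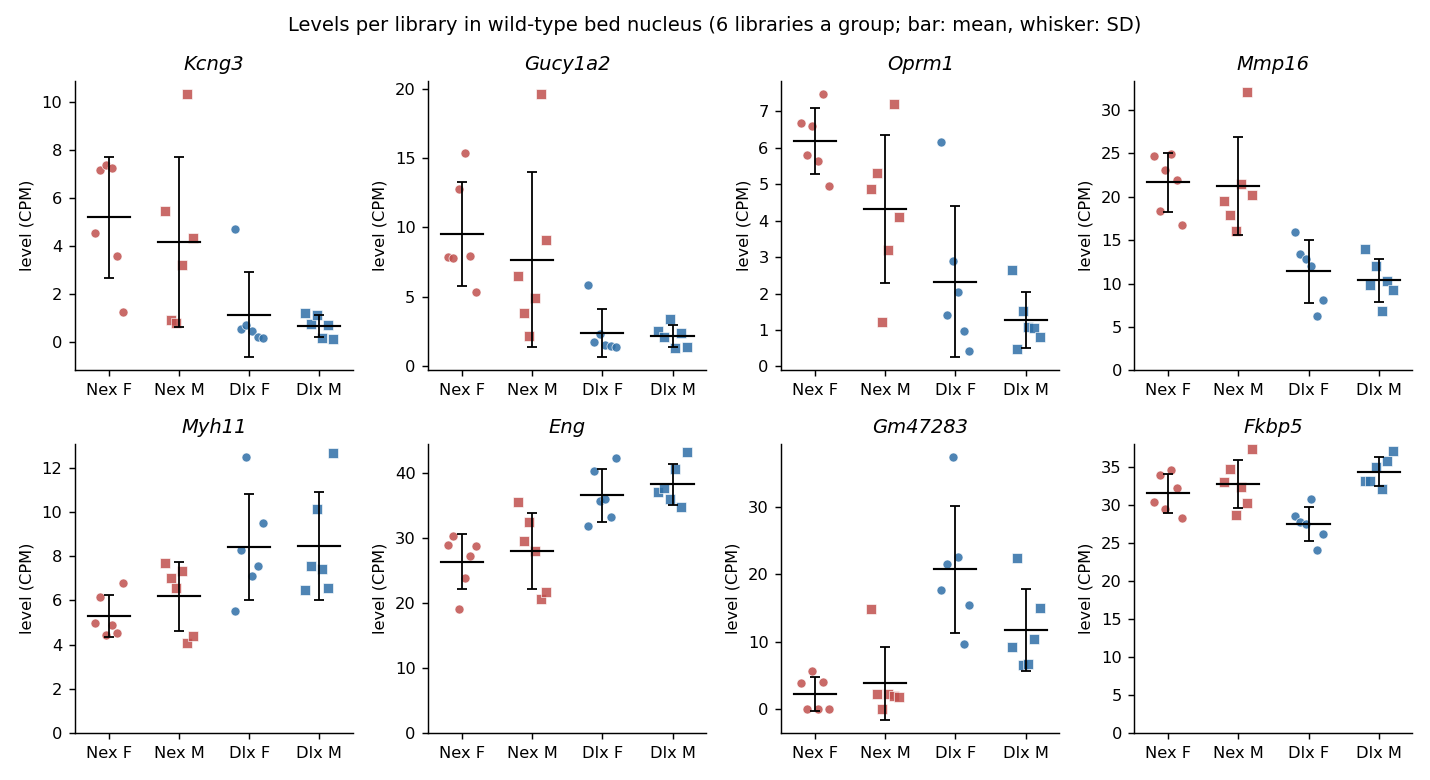
Level in CPM of 8 genes in each of the 24 libraries, by line and sex (6 libraries a group; bar, mean; whisker, SD). Kcng3, Gucy1a2, Oprm1 and Mmp16 stand higher in the Nex line, with 1 high Dlx female in the first 3, and Myh11, Eng and Gm47283 stand lower. The lines overlap widely in Fkbp5, with 4 Dlx females below every Nex library.

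Mmp16, a membrane-bound matrix metalloproteinase (chromosome 4, 17852893 to 18119145), was among the genes with no overlap of the lines. Its level ran from 16.1 through 20.9 to 32.1 CPM in the Nex line and from 6.23 through 11.1 to 15.95 CPM in the Dlx line, with a log2 difference of 0.98 (SE 0.14, edgeR adjusted p = 0.000304). In all, 7 genes (0.0376% of those tested) had every Nex library above every Dlx library, and 0 had the opposite. Beside Mmp16 they were Traf3ip2, an adaptor of interleukin 17 signalling, the MHC class I-like gene H2-M10.2, and the predicted genes Gm15893, Gm45718, Gm44684 and Gm43088. Traf3ip2 was the most even of them within a line, at 14.5 to 19.7 CPM against 10.6 to 13.8 CPM, with a log2 difference of 0.37 (edgeR adjusted p = 0.000428).

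Xkr4, a member of the XK family of membrane proteins (chromosome 1, 3205901 to 3671498), shared the smallest adjusted p among the genes described here with H2-M10.2. Its level was 14.5 through 24.5 to 34.5 CPM in the Nex line and 5.58 through 8.91 to 19.6 CPM in the Dlx line, and 11 of 12 Nex libraries exceeded every Dlx library. The log2 difference was 1.39 (SE 0.17, edgeR adjusted p = 0.000159). Ptar1, a prenyltransferase subunit gene, was also higher in 11 Nex libraries than in any Dlx library, with a log2 difference of 1.72 (edgeR adjusted p = 0.000897). Nkain3, a gene of a sodium pump-interacting protein, differed by 1.61 (edgeR adjusted p = 0.00136) and Zfp871, a zinc finger gene, by 1.62 (edgeR adjusted p = 0.00161).

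Other genes with small p-values were abundant and differed less. Ryr2, the calcium release channel of the endoplasmic reticulum, stood at 102.5 through 144.6 to 174.3 CPM in the Nex line and at 77.7 through 98.9 to 119.0 CPM in the Dlx line, with a log2 difference of 0.54 (SE 0.07, edgeR adjusted p = 0.000173). Unc80, a subunit of the sodium leak channel complex, also differed by 0.54, and Dicer1, the RNase that cuts microRNA precursors, by 0.37. For Ryr2, Unc80 and Dicer1, 11 of 12 Nex libraries stood above every Dlx library. Cplane1, a ciliogenesis gene, differed by 0.38 (SE 0.05) with 9 such libraries.

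Several large families of long genes were partly higher, chosen for description after their values were seen. Their counts stand beside 4.2% called higher among all genes tested and 22.9% in the class of the longest coding genes described below, of 9810 bases and more. Among the genes of HECT-type and UBR ubiquitin ligases, which attach ubiquitin to proteins, 7 of 16 were called higher and 0 lower, with a family median of 0.22 against 0.00 for all genes tested, and the median length of the family was 9852 bases. Huwe1 and Herc2 led them, with log2 differences of 0.42 (SE 0.05) and 0.52 (SE 0.07), both at an edgeR adjusted p of 0.000173. All 4 VPS13 genes, which encode bridge-like lipid transfer proteins, were called higher. Vps13b differed by 0.58 (SE 0.10) and Vps13c by 0.50 (SE 0.08).

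Chromatin genes held further calls. Among the histone lysine methyltransferase genes, with a median length of 10813 bases, 6 of 19 were called higher and 0 lower, among them Kmt2a (log2 difference 0.50, SE 0.08), Kmt2c (0.53, SE 0.08) and Nsd1 (0.37, SE 0.05). Among the CHD chromatin remodeller genes, 5 of 9 were called higher, with values from 0.21 in Chd1 to 0.43 in Chd9. Of 84 cytosolic ribosomal protein genes and 48 proteasome subunit genes 0 were called, with medians of -0.05 and -0.02. These genes are shorter, with median lengths of 1730 and 2768 bases. In the classes of coding genes that hold those lengths, 0.601% and 0.867% were called higher, so calls would be rare at such lengths.

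Some channel and receptor genes were called higher, where 4.2% of all genes tested and 22.9% of the longest class of coding genes were. Median lengths were 10040 bases for the calcium channel, 11146 for the sodium channel and 7847 for the glutamate receptor genes below. Of the voltage-gated calcium channel alpha 1 genes 3 of 10 were called higher, led by Cacna1e of the R-type channel at 121.6 to 391.6 CPM in the Dlx line and 193.1 to 466.7 CPM in the Nex line (log2 difference 0.75, SE 0.17, edgeR adjusted p = 0.0105). Of the sodium channel alpha genes 3 of 9 were called higher, and Scn2a, a channel of the axon initial segment, differed by 0.49 (SE 0.10). Of the ionotropic glutamate receptor genes 3 of 16 were called higher: Grin2b of the NMDA receptor (0.74, SE 0.16), Gria2 of the AMPA receptor (0.45, SE 0.13) and Grik2 of the kainate receptor (0.40, SE 0.12). Without Dlx female 1, 5 of the 16 were called higher, in a fit that called 1399 of 18814 genes higher.

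Of 14 GABA-A receptor subunit genes tested, 2 were called higher and 0 lower, where 4.2% of all genes tested were called higher. These were Gabrg3, a gamma subunit (log2 difference 0.44, SE 0.10, edgeR adjusted p = 0.0104), and Gabrb1, a beta subunit (0.32, SE 0.08, edgeR adjusted p = 0.0197). Of 79 potassium channel genes, 8 were called higher and 0 lower, with a median of 0.03. Without Dlx female 1 the calls became 4 of 14 and 16 of 79, in a fit that called 1399 of 18814 genes higher. Reln, the extracellular matrix protein reelin, was the single call among 20 genes of GABAergic identity, at 74.5 through 140.4 to 243.7 CPM in the Nex line and 44.3 through 68.9 to 147.9 CPM in the Dlx line (log2 difference 0.84, SE 0.22, edgeR adjusted p = 0.021).

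Gene length in the deposited annotation went with the difference. Length here is the number of bases that the annotation counts per gene, and the 14961 protein-coding genes tested were put into 10 classes of like size by it. In the longest class, of 9810 bases and more, 343 of 1496 genes (22.9%) were called higher and 4 lower, and the median log2 difference was 0.13. In the shortest class 9 of 1497 were called higher and 12 lower, and the median was -0.07. The coding genes called higher had a median length of 11447 bases, those called lower 3570, and all those tested 4369. Each step between the classes from the third to the longest raised the median.

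The same order of length classes was seen in other libraries. In the longest class the median log2 difference was 0.16 in males, 0.11 in females, 0.17 in knockout bed nucleus and 0.09 in wild-type hippocampus, and in the shortest class it was -0.07, -0.05, -0.19 and -0.10. Per library, the median of the longest class less that of the shortest ran from -0.085 through 0.048 to 0.573 in the Nex bed nucleus and from -0.346 through -0.141 to 0.116 in the Dlx bed nucleus (log2, each gene centred on its mean), so the lines overlapped in it. The value of 0.573 was that of 1 Nex male, and the next Nex value was 0.235. That male also had 7.38% mitochondrial counts, where the other wild-type bed nucleus libraries had 3.66 to 4.92%. Without it the test called 797 genes. RNA quality values are not given in the labels, and the part of length in the calls was not tested beyond the following fit. With each library's trend on gene length taken out, a fit chosen after seeing the data, 649 genes were called: 2.78% of those tested were higher and 0.703% lower. Of them 511 were also called higher, and 80 also lower, without the offset.

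**Figure D3:**
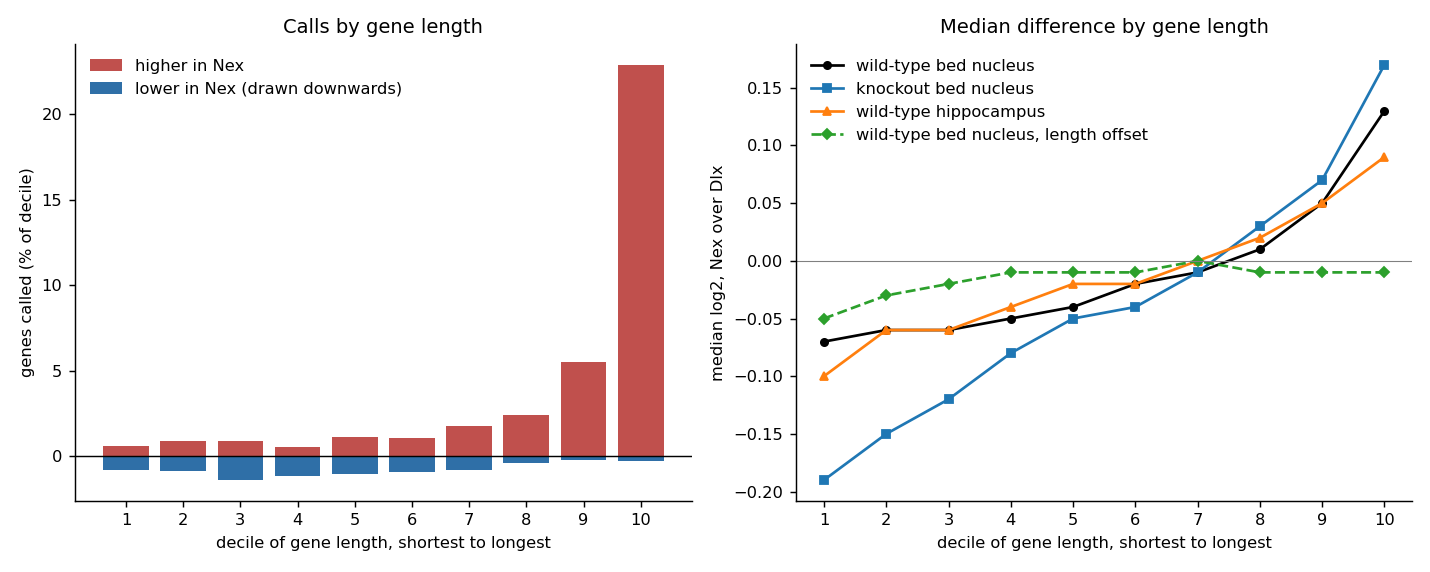
Left, percentage of protein-coding genes called higher (upwards) and lower (downwards) in the Nex line per class of gene length, 10 classes from shortest to longest; right, median log2 Nex over Dlx per class in wild-type bed nucleus, knockout bed nucleus, wild-type hippocampus and wild-type bed nucleus with the length offset. Calls higher in Nex rise to 22.9% in the longest class, and the medians rise with length in every set of libraries but stay between -0.05 and 0.00 with the offset.

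With the offset the 782 genes called higher had a median log2 difference of 0.33, against 0.45 without it, and 769 of them kept their direction. The difference stayed nearly the same in some named genes and shrank in others. Kcng3, Gucy1a2, Oprm1, Xkr4 and Mmp16 had log2 differences of 2.38, 1.88, 1.54, 1.38 and 0.93, all still called. Ryr2 had 0.22 (edgeR adjusted p = 0.0602) and Reln 0.57 (edgeR adjusted p = 0.0898), no longer called. In that fit 136 of 1496 genes of the longest class were called higher and 45 lower, and 8 of 1497 of the shortest class higher and 11 lower. Beside these shares, 6 of 16 ubiquitin ligase, 5 of 19 methyltransferase, 2 of 4 VPS13 and 2 of 9 sodium channel genes were called higher with the offset. So were 1 of 9 CHD, 1 of 16 glutamate receptor and 0 of 10 calcium channel genes. Setd5, a methyltransferase family gene, was called lower there (log2 difference -0.12, edgeR adjusted p = 0.0429) and stood at 0.10 without the offset (edgeR adjusted p = 0.115). Ank2, a spectrin-binding scaffold, and the imprinted noncoding RNAs Snhg14 and Kcnq1ot1 had differences of 0.30, 0.27 and 0.49 without the offset and of -0.05, -0.04 and -0.08 with it, and these 3 genes were chosen after their values were seen.

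Calls higher in the Nex line were frequent in 2 classes of noncoding annotation. Of 531 TEC genes, annotated loci that still await experimental proof of a transcript, 89 (16.8%) were called higher and 1 lower. Of 58 sense intronic genes 10 (17.2%) were called higher, against 3.76% of the 14961 protein-coding genes. The shares were 5.13% of antisense, 4.65% of long intergenic and 3.7% of processed transcript genes and 1.93% of processed pseudogenes, and differences between the classes were not tested. Of the 89 TEC genes called higher, 75 (84.3%) overlapped a protein-coding gene, as did 339 (63.8%) of all 531 tested. Of the 74 called higher with a tested coding partner, 11 had that partner called higher too, against 21 of 336 among all TEC genes tested. No source used here gives the strand setting of the counting, so reads of such a gene and of its partner may not be told apart. TEC, long intergenic, antisense and sense intronic genes together took 1.587 to 1.794% of counts in the Nex line and 1.492 to 1.651% in the Dlx line.

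Gm15893 shows such a locus. It lies within Msi2 on the opposite strand (chromosome 11, 88356291 to 88363947) and had 2.31 through 2.92 to 6.12 CPM in the Nex line and 0.234 through 1.16 to 2.19 CPM in the Dlx line, with no overlap (log2 difference 1.53, SE 0.24, edgeR adjusted p = 0.000513). Msi2, an RNA-binding protein gene, had a log2 difference of -0.10 (edgeR adjusted p = 0.498). Gdap10, which lies within the span of Nampt, differed by 1.72 (edgeR adjusted p = 0.00104), while Nampt, an enzyme of NAD synthesis, differed by 0.03 (edgeR adjusted p = 0.796). Further predicted loci among the largest rises by the naming rule were Gm37127 (1.95, SE 0.36), 2410021H03Rik (1.86, SE 0.36), Gm38020 (1.73, SE 0.30) and Gm43843 (1.52, SE 0.36). Gm43843 overlaps Cttnbp2, a cortactin-binding protein gene that differed by 0.49 (SE 0.16, edgeR adjusted p = 0.0823). Gm38020 overlapped no protein-coding gene. Gm43080, within the span of Mccc1, differed by 1.12 (SE 0.16). Of the 8 coding partners of the 10 such loci named here, 1 was called higher and 0 lower: Dnajb14, a co-chaperone gene that overlaps Gm43088, at 0.31 (SE 0.08, edgeR adjusted p = 0.0175).

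Among genes lower in the Nex line, vessel genes gave the most calls of the cell type lists. Of 20 endothelial and mural genes 4 were called lower and 0 higher, where 0.687% of all genes tested were called lower, and 18 of 20 had negative values with a median of -0.17. Cldn5, a tight junction protein of the blood-brain barrier, stood at 28.6 through 36.5 to 48.96 CPM in the Nex line and 36.8 through 50.2 to 57.5 CPM in the Dlx line (log2 difference -0.41, SE 0.08, edgeR adjusted p = 0.00338). Of 12 Nex libraries 6 lay below every Dlx library. In bulk tissue, fewer cells of a type and less RNA per cell cannot be told apart.

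The other called members were Flt1, a receptor of vascular endothelial growth factor (log2 difference -0.32, SE 0.09, edgeR adjusted p = 0.0266), Myh11, the smooth muscle myosin (-0.56, SE 0.14, edgeR adjusted p = 0.0175), and Pdgfrb, the pericyte growth factor receptor (-0.23, SE 0.06, edgeR adjusted p = 0.0312). Pecam1 and Cdh5, also endothelial, had values of -0.20 and -0.29 that did not pass. The summed level of the list was 501.9 through 617.4 to 712.6 CPM in the Nex line and 619.2 through 708.1 to 768.3 CPM in the Dlx line, and 7 Nex libraries lay below every Dlx library. Without Dlx female 1, which had the lowest Dlx sum, 8 of the 20 were called lower, in a fit that called 457 of 18814 genes lower.

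Vessel genes outside the list were picked because they were called, so their number carries no weight. Eng, endoglin of endothelial cells (chromosome 2, 32646595 to 32682669), stood at 19.1 through 28.4 to 35.6 CPM in the Nex line and 31.9 through 36.6 to 43.3 CPM in the Dlx line, and 10 Nex libraries lay below every Dlx library (log2 difference -0.46, SE 0.08, edgeR adjusted p = 0.00169). The endothelial transcription factors Sox17 and Sox18 differed by -0.42 and -0.46, the receptor genes Tie1 and Notch4 by -0.41 and -0.38, and the caveolar coat gene Cavin1 by -0.44. Mylk and Myl9, of the contractile apparatus of smooth muscle, differed by -0.38 and -0.40.

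The largest falls by the naming rule included several genes of muscle and vessel wall. Des, the muscle intermediate filament desmin, stood at 0.893 to 1.93 CPM in the Nex line and 1.45 to 3.37 CPM in the Dlx line (log2 difference -0.63, SE 0.15, edgeR adjusted p = 0.00962). Tinagl1, a matricellular protein gene, differed by -0.60 (SE 0.10, edgeR adjusted p = 0.00114), and 11 of 12 Nex libraries lay below every Dlx library. Klf2, a transcription factor of endothelial cells under flow, differed by -0.56 (SE 0.13), Ndufa4l2, a mitochondrial protein gene known in pericytes, by -0.74 (SE 0.15), and Clec7a, the beta-glucan receptor of myeloid cells, listed as a polymorphic pseudogene, by -0.83 (SE 0.18). Gipc3, a PDZ domain gene of hearing, differed by -0.75 (SE 0.15). Smaller falls were Creb3l1, a membrane-bound transcription factor (-0.59, SE 0.17), and the predicted genes Gm44509 (-0.52, SE 0.14) and Gm13830 (-0.51, SE 0.14). Creb3l1 was called in 12 and Gm44509 in 17 of the 24 fits that left out 1 library.

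Astrocyte genes held 2 lower calls of 18, where 0.687% of all genes tested were called lower, with 16 of 18 negative and a median of -0.14. Without Dlx female 1 the list held 6 lower calls and 1 higher, and without the outlying Nex male 4 lower and 1 higher, in fits that called 457 and 382 genes lower. Gfap, the astrocyte intermediate filament, stood at 168.3 through 259.9 to 409.0 CPM in the Nex line and 242.1 through 373.8 to 549.8 CPM in the Dlx line (log2 difference -0.47, SE 0.14, edgeR adjusted p = 0.0437). Fgfr3, a growth factor receptor of astrocytes, differed by -0.26 (SE 0.07, edgeR adjusted p = 0.039). Both lines overlapped in each, and each gene was called in 9 of the 24 fits that left out 1 library. Microglial genes (0 of 17 called, 11 negative, median -0.04) and myelin genes (0 of 20 called, 19 negative, median -0.12) held no call.

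Gm47283 had the most negative difference among the genes called, -2.41 (SE 0.58, edgeR adjusted p = 0.0129), and its counts of 0 fell on the same animal numbers in both regions. The gene is annotated on chromosome Y from 90784738 to 90816464, at the distal end where X and Y share sequence, and females had counts of it. Its level was 0 through 2.04 to 14.8 CPM in the Nex line and 6.50 through 15.3 to 37.5 CPM in the Dlx line, and 11 of 12 Nex libraries lay below every Dlx library. In 4 Nex animals it had 0 counts in the bed nucleus, and the hippocampus libraries with the same numbers also had 0, among 11 Nex numbers present in both regions. The Nex male with the most had 316 counts in the bed nucleus and 321 in the hippocampus, while the 10 Dlx numbers present in both had 140 to 500 counts in the bed nucleus and 186 to 767 in the hippocampus. Other numbers differed between the regions: hippocampus over bed nucleus CPM ran from 0.69 to 4.09 in the 7 Nex numbers above 0 and from 0.773 to 2.45 in the Dlx numbers. The line difference was -2.38 in the hippocampus and -2.63 in knockout bed nucleus.

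Fbxw23, annotated as a transcribed unprocessed pseudogene of the F-box family (chromosome 9, 109516388 to 109534858), had the next largest fall by the naming rule. It stood at 0.140 through 0.835 to 1.49 CPM in the Nex line and 1.24 through 2.17 to 3.31 CPM in the Dlx line, and 11 libraries of each line lay outside the range of the other line. The log2 difference was -1.39 (SE 0.21, edgeR adjusted p = 0.000466), and it was -1.18 (edgeR adjusted p = 0.000877) in knockouts and -0.18 in hippocampus.

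The target and driver genes of the alleles did not pass the test. Fkbp5 stood at 28.3 through 32.3 to 37.4 CPM in the Nex line and 24.1 through 31.4 to 37.2 CPM in the Dlx line (log2 difference 0.06, SE 0.06, edgeR adjusted p = 0.528). The ranges overlapped, and 4 Dlx libraries, all females, lay below every Nex library. Its difference was -0.07 (SE 0.07) in males and 0.20 (SE 0.07) in females (interaction -0.27, SE 0.10), and none of these was called. Dlx5 and Dlx6, forebrain GABAergic transcription factors, differed by 0.03 and 0.12, and Neurod6, at 6.47 CPM or less in every library, by -0.75 (SE 0.50, edgeR adjusted p = 0.391).

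Of the peptide genes, Penk (enkephalin) had a log2 difference of 0.45 (SE 0.27), Pdyn (dynorphin) 0.24 (SE 0.21), Crh (corticotropin-releasing hormone) -0.25 (SE 0.23), Sst (somatostatin) -0.14 (SE 0.13) and Tac2 (neurokinin B) -0.08 (SE 0.38). Gad1, Gad2 and Slc32a1, the synthesis and vesicle loading genes of GABA, differed by -0.08, -0.01 and -0.09. Within a line the peptide genes varied widely: Penk ran from 151.8 to 1148 CPM in the Nex line and from 242.1 to 901.2 CPM in the Dlx line. Pgr, the progesterone receptor, was the single call among 29 bed nucleus genes (log2 difference 0.34, SE 0.07, edgeR adjusted p = 0.00477).

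**Figure D4:**
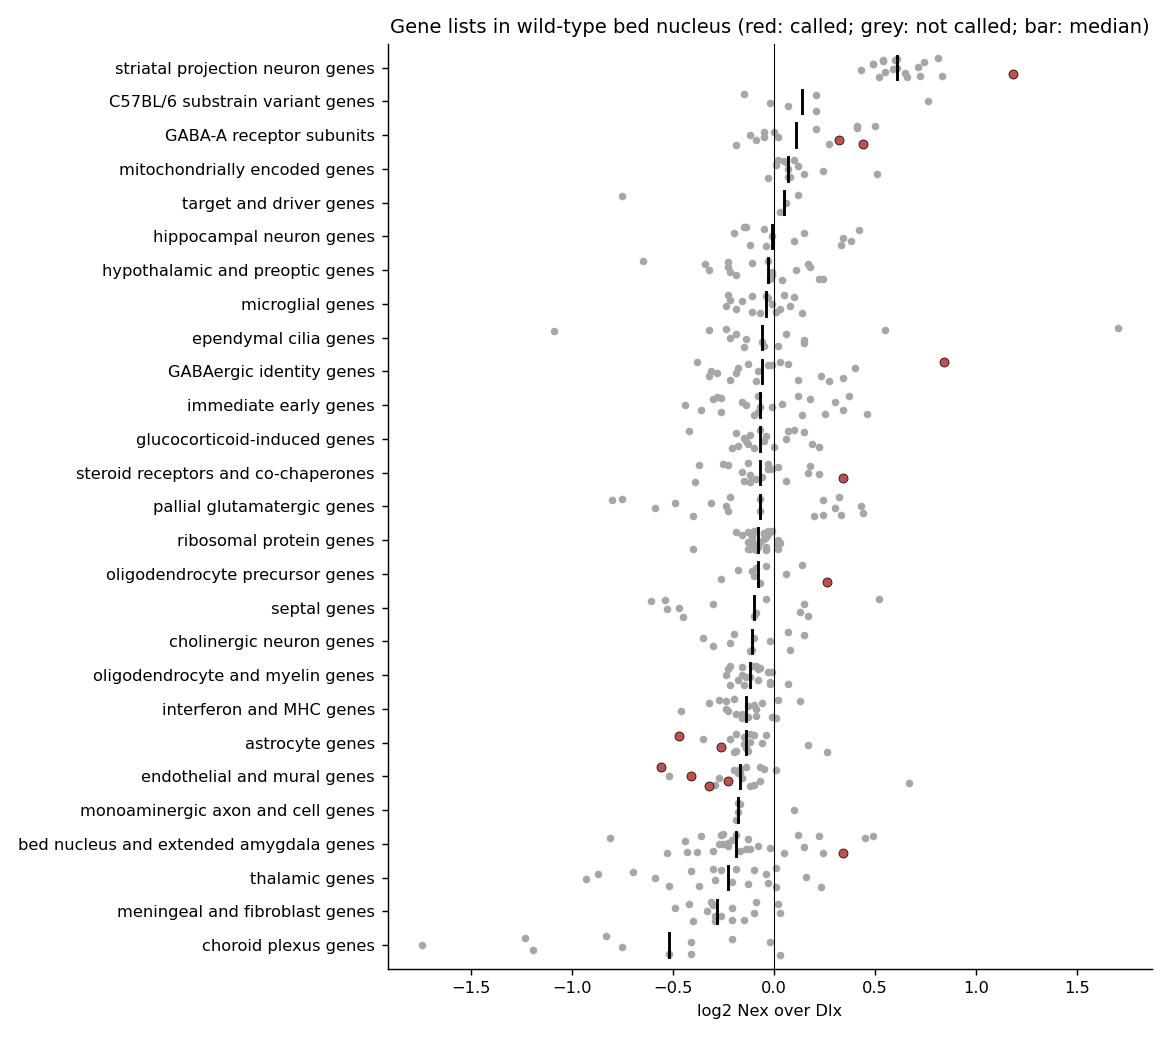
Log2 Nex over Dlx in wild-type bed nucleus for each member of 27 gene lists, sorted by list median (bar); red points were called, grey points were not. Striatal projection neuron genes all lie above 0 with 1 call, and endothelial and mural genes lie mostly below 0 with 4 calls.

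Genes of striatal projection neurons, a cell type of the neighbouring striatum, moved with the line in direction but mostly not past the test. Of 19 tested, 19 had positive values with a median of 0.61, and 1 was called, Gprin3 (log2 difference 1.18, SE 0.26, edgeR adjusted p = 0.00647), or 3 without Dlx female 1. Of all genes tested 4.2% were called higher, and the fit without Dlx female 1 called 1399 of 18814 higher. Drd1 and Drd2, the dopamine receptor genes, had values of 0.61 (SE 0.31) and 0.54 (SE 0.30), and Adora2a, the adenosine receptor, 0.66 (SE 0.36). The summed level of the list was 1385 through 6432 to 11280 CPM in the Nex line and 2155 through 3751 to 8797 CPM in the Dlx line, so it varied more within lines than between them.

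The striatal sum and the libraries that stood apart went together. The outlying Nex male had the lowest sum of all, 1385 CPM, and Dlx female 1 had 7363 CPM where the other 5 Dlx females had 2155 to 2771 CPM. Dlx female 1 was high in Kcng3, Gucy1a2 and Oprm1, and the outlying Nex male had 0.933 CPM of Kcng3, 3.87 CPM of Gucy1a2 and 5.32 CPM of Oprm1. The Nex female at 23.43 on the first component had a sum of 1785 CPM, with 1.25 CPM of Kcng3 and 4.96 CPM of Oprm1. The Dlx male at -21.4 had the highest Dlx sum, 8797 CPM, with 1.12 CPM of Kcng3 and 1.53 CPM of Oprm1. What part the neighbouring tissue had in the calls was not tested. Thalamic (0 of 20 called, median -0.23), septal (0 of 13, median -0.10) and hypothalamic genes (0 of 18, median -0.03) held no call.

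The remaining lists held few calls. Cholinergic (0 of 11), monoaminergic (0 of 5), pallial glutamatergic (0 of 19) and hippocampal neuron genes (0 of 13) had medians from -0.18 to -0.01. Meningeal and fibroblast (0 of 16 called, 14 negative, median -0.28), choroid plexus (0 of 11, 10 negative, median -0.52) and ependymal cilia genes (0 of 15, 9 negative, median -0.06) had no call with all libraries. Without Dlx female 1 the meningeal and fibroblast list had 2 lower calls and the pallial list 2 higher. That fit called 457 of 18814 genes lower and 1399 higher. Choroid plexus levels rested on few libraries: Ttr, the thyroid hormone carrier of that tissue, reached 475.3 CPM in 1 Dlx library, where the Dlx median was 4.06 CPM. Of 10 oligodendrocyte precursor genes 1 was called higher, Vcan, the proteoglycan versican (log2 difference 0.26, SE 0.07, edgeR adjusted p = 0.0247).

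Lists tied to stress hormone action and neuronal activity held few calls with all libraries. Of 20 steroid receptor and co-chaperone genes 1 was called, Pgr again. Without the outlying Nex male, where 1074 of 18827 genes were called higher and 382 lower, the list held 1 higher and 4 lower calls. Without Dlx female 1, where 1399 of 18814 genes were called higher and 457 lower, the list held 2 higher and 1 lower. Its summed level was 4502 to 5137 CPM in the Nex line and 4742 to 5316 CPM in the Dlx line, and 6 Nex libraries lay below every Dlx library. Of 19 glucocorticoid-induced genes and 22 immediate early genes 0 were called, each list with a median of -0.07. Interferon and MHC genes (0 of 20, median -0.14), mitochondrially encoded genes (0 of 13, median 0.07) and a short list of ribosomal protein genes (0 of 30, median -0.08) held none. Of 6 genes known to vary between C57BL/6 substrains 0 were called, with a median of 0.14, and of 5 sex check genes 0 were called.

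The difference was also taken in each sex, from a fit of all 24 libraries with a spread shared by the 4 groups. It called 60 genes in males (0.322%, 59 higher and 1 lower) and 80 in females (0.429%, 74 higher and 6 lower), with 6 libraries a line in each. Fits of the 12 male or the 12 female libraries alone called 8 and 6. Kcng3 differed by 2.61 in males and 2.13 in females, Oprm1 by 1.77 and 1.39, and Cldn5 by -0.38 and -0.44. The test of the difference between the sexes called 0 of 18634 genes (0%) with edgeR, with 650 at an unadjusted p under 0.05; DESeq2 called 0 and limma voom with quality weights 1. The smallest p belonged to Kmo, an enzyme of tryptophan breakdown, with -1.10 in males and 1.10 in females (interaction -2.20, SE 0.51, edgeR adjusted p = 1.0), then Gm5345 and Slco2a1, a prostaglandin transporter.

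The same line contrast was made in 24 knockout bed nucleus libraries from other animals. Those groups differ in the deletion too, since Fkbp5 is deleted in glutamatergic neurons in one line and GABAergic neurons in the other, and Fkbp5 itself differed by 2.09 between them. There 12.5% of 18663 genes were called higher and 10.9% lower. Of the 782 genes called higher in wild types, 765 were tested in knockouts, 760 had the same direction and 659 (86.1%) were called higher. Of the 128 called lower, 125 had the same direction and 54 (42.2%) were called lower, and 0 genes were called in the opposite direction.

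The size of the difference varied between the genotypes, and its change was not tested. Kcng3 differed by 3.38 in knockouts against 2.35 in wild types, Gucy1a2 by 2.30 against 1.89 and Oprm1 by 2.13 against 1.57, Xkr4 by 1.34 against 1.39 and Mmp16 by 0.99 against 0.98, all called in both. Oprk1 and Oprd1, not called in wild types, were called in knockouts, at 0.47 (edgeR adjusted p = 0.00039) and 0.45 (edgeR adjusted p = 0.0367). Klf2 had -0.09 in knockouts against -0.56, and Ndufa4l2 -0.31 against -0.74, neither called in knockouts. Of 20 vessel genes 19 were tested there and 7 were called lower, with Cldn5 at -0.40 but Flt1 at -0.12 (edgeR adjusted p = 0.424). Of 20 myelin genes 9 were called lower in knockouts and 0 higher, and of 18 astrocyte genes 6 lower and 2 higher. Of the 19 striatal genes 17 were called higher in knockouts with a median of 1.01. A Dlx male of the knockouts stood apart in the length measure, at -1.19 against -0.213 to 0.18 in the other Dlx knockouts, and without it 86.5% of 771 tested genes were called higher and 35.2% of 128 lower.

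**Figure D5:**
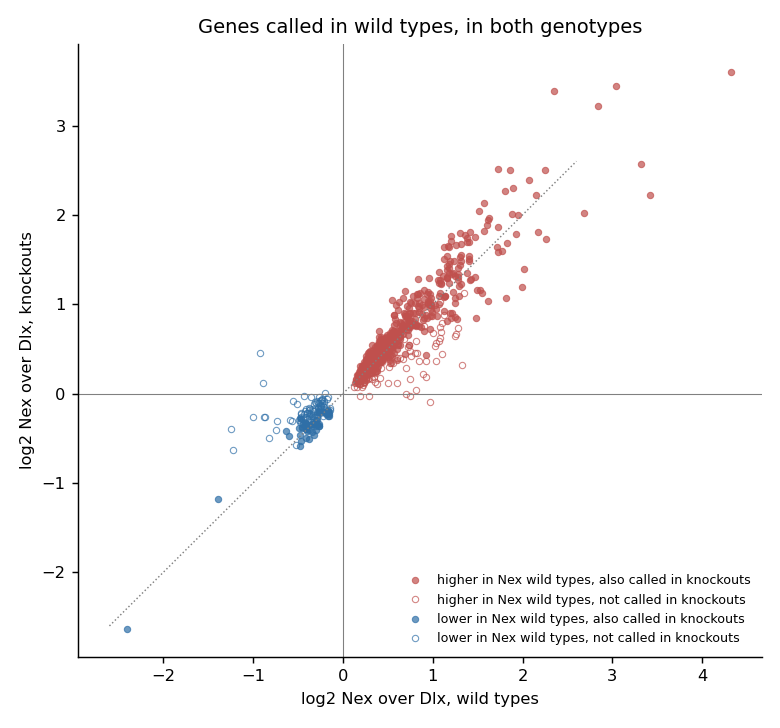
Log2 Nex over Dlx in wild types (x axis) and in knockouts (y axis) for the genes called in wild-type bed nucleus and tested in both; filled points were also called in knockouts, and the dotted line marks equal values. Of 765 genes higher in wild types 760 lie above 0 in knockouts, and of 128 lower genes 125 lie below 0.

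In the 24 wild-type hippocampus libraries, of which 21 share line, sex and number with a bed nucleus library, the line contrast called 1 of 18384 genes (0.00544%) with edgeR, with 3158 at an unadjusted p under 0.05; DESeq2 called 400 and limma voom with quality weights 249. The called gene was Gm6767, a predicted gene at -2.26 (SE 0.37, edgeR adjusted p = 0.041) that had too few counts to be tested in the bed nucleus. Of the genes called higher in the bed nucleus, 753 of 763 tested had a positive value in the hippocampus, with a median of 0.24 against 0.45 in the bed nucleus, and 0 were called. Of those called lower, 108 of 127 had a negative value, with a median of -0.12. Kcng3 differed by 1.0 there, Oprm1 by 1.06 and Cldn5 by -0.33. If these numbers mark animals, these values are not independent of those of the bed nucleus.

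Whether a difference was larger in the bed nucleus was tested as line by region over 48 wild-type libraries. It called 0 of 19561 genes (0%) with edgeR, with 1324 at an unadjusted p under 0.05; DESeq2 called 2 and limma voom with quality weights 103. The smallest p belonged to Ctxn3, a cortexin gene, which differed by -0.37 in the bed nucleus and 2.13 in the hippocampus (interaction -2.51, SE 0.49, edgeR adjusted p = 0.132). Rps26-ps1, a ribosomal pseudogene, followed with 0.30 and -1.05 (interaction 1.34, edgeR adjusted p = 0.196), and then B230206I08Rik with an interaction of 4.66 (edgeR adjusted p = 0.304).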

How the data were processed

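Brain libraries from 2 mouse lines were compared; the 24 wild-type bed nucleus libraries are described here, beside 24 knockout bed nucleus and 24 wild-type hippocampus libraries. Reads were aligned with HISAT2 2.0.5 and counted with featureCounts 1.5.0-p3, and DESeq2 was also used, per the submitters' processing notes. The values are raw counts per gene as deposited, not normalized by the authors. No source used here gives the build or strand setting; positions are on GRCm38, since 98.33% of the 54495 identifiers found in GENCODE M21 had its coordinates.

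Counts were tested in R 4.3.3 with edgeR 4.0.16 (filterByExpr on line by sex groups, TMM, glmQLFit and glmQLFTest, sex as a covariate, Benjamini-Hochberg over all genes tested, adjusted p under 0.05). SE is the log2 difference over the square root of F. CPM are counts over the library total of the filtered genes times its TMM factor. The length offset is a per-library lowess (span 0.3) of log2 CPM on log10 gene length. DESeq2 1.42.0, limma 3.58.1 and sva 3.50.0 served alternatives. Tested on simulated data for the line difference, edgeR recovered 79% of genes changed 1.5-fold and 96% of those changed 2-fold, with 7 calls among unchanged genes of 18451 tested. In a simulation with a length trend that differed between lines, edgeR made 580 calls among unchanged genes of 18369 and the length offset 11. The size of that trend was set by hand and not fitted to these libraries, and both simulations drew the genes independently of each other. These counts therefore do not measure false calls in the real data.

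Named are Fkbp5, Neurod6, Dlx5 and Dlx6, 9 tissue genes, the 12 largest rises and 12 largest falls at a mean of 1 CPM, the 10 smallest p and up to 4 called genes of each list; where a test of line by sex or line by region called none, its 3 smallest p. Of the genes so named, 1 is not reported here. The comparison, members, 28 lists and naming rule were chosen with earlier results of these data known. Of 461 listed symbols 1 was not in the table. Replicate numbers differ between the lines, so the line difference has no pairing.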

Additional observations from a re-analysis of the deposited data

Results flagged for a closer look

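The levels of the genes named by rule were examined in each of the 4 groups of 6 libraries with Dixon's test at its 95% critical value, and 28 extreme values were found among 252 groups examined, where chance gives about 1 in 20 groups. Of these, 13 were in Dlx female 1. No explanation was tested.

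In Dlx female 1 the values in CPM, each with the nearest other Dlx female in brackets, were 29.4 (17.6) for Dlx6, 806.4 (328.2) for Penk, 190.7 (86.9) for Pdyn, 4.72 (0.738) for Kcng3, 1.598 (0.477) for Gm37127, 5.87 (2.34) for Gucy1a2 and 20.8 (7.64) for Gm38020. Further values were 6.43 (2.73) for Nkain3, 11.7 (2.88) for Gm43843, 3.38 (2.19) for Gm43080, 39.96 (19.4) for Gprin3 and 147.9 (79.2) for Reln. Fgfr3 was low in it, at 131.9 (173.0).

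Among Dlx males, 1 had 6.47 CPM of Neurod6, another 2.14 of Crh, another both 5.50 of Nkain3 and 2.66 of Gm43080, and another 10.7 of Tinagl1. Dlx female 11 had 12.9 CPM of Crh. Among Nex females, 1 had 25.96 CPM of Dlx6, another 115.7 of Sst, and another 46.0 of Slc17a7, 1.77 of Gipc3 and 597.8 of Huwe1. Among Nex males, 1 had 4.78 CPM of Gm15893, 32.1 of Mmp16 and 6.00 of Gm43080, and another 14.8 of Gm47283.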

How the results depend on the processing

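The 910 calls of the line difference stayed within 1.5 times under DESeq2 (1213), median-of-ratios factors (894), no filter (752), 1 surrogate variable (675), no sex covariate (870) and the length offset (649). The 128 lower calls moved more, to 238 under DESeq2 and 57 with 1 surrogate variable. Limma voom with quality weights called 3790, a log2 threshold of 1 left 149, and leaving out 1 library at a time gave 623 to 1856. In males the 60 calls became 331 (DESeq2), 8 (no filter), 866 (voom), 8 (males alone) and 6 (length offset); in females the 80 became 274, 51, 2650, 6 (females alone) and 25. Line by sex called 1 with voom. Knockouts gave 6691 with voom and 4173 without the Dlx male that stood apart. Hippocampus gave 400 (DESeq2), 0 (no filter), 249 (voom), 2 (length offset) and 26 without the Dlx male lowest in the length measure. Line by region gave 2 (DESeq2), 103 (voom) and, with the animal number as replicate block, 0 (743 at an unadjusted p under 0.05). The causes were not tested. Numbers were not treated as pairs: 21 same-numbered pairs of both regions correlated at -0.134 to 0.198, 4 of them over 0.1. For 15 of the 21 this value exceeded the library's median correlation with other numbers of its line and sex, a hint from the data only. Among 3406 values over 115 gene results, 170 lost and 19 gained a call, and 3 reversed with the length offset: Ank2 (-0.05), Snhg14 (-0.04) and Kcnq1ot1 (-0.08). Of 44 named called genes, 36 were called in each of the 24 fits without 1 library; the others were Creb3l1, Gm44509, Fgfr3, Gfap, Vcan, Pdgfrb, Gabrb1 and Reln. The length offset, the fits without these Dlx males, and the gene families were chosen after seeing the data. At this depth genes near 1 CPM rest on about 20 counts a library.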
